A study of Mus musculus with 6 samples.

Results

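The genes described here write, remove and guard DNA methylation. They are 10 genes of a table of 49315, picked by symbol: 3 writers (Dnmt1, Dnmt3a, Dnmt3b), 3 erasers (Tet1, Tet2, Tet3) and 4 imprint guards (Zfp57, Zfp445, Trim28, Dppa3). All 10 matched a gene ID on GRCm38. RNA sequencing was done on a mouse ovarian cancer cell line that the labels call TKO, for triple knockout. There were 3 libraries of the MNRR1 KO, whose descriptions give a single clone name, and 3 of the line with MNRR1 intact, labelled Wild Type (WT). KO therefore stands for 1 clone, and effects of losing MNRR1 cannot be told apart from other traits of that clone. The triple knockout is shared by KO and WT, with its genes not named in the labels. No agent, time point or date is given. MNRR1 is the protein of the gene Chchd2, which acts at cytochrome c oxidase in mitochondria and as a transcription regulator in the nucleus. KO was compared with WT for the RNA of these genes. Methylation itself was not measured.

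Cytosine methylation at CpG sites is copied onto the new DNA strand after replication by DNMT1, which UHRF1 brings to the site. DNMT3A and DNMT3B place methyl groups on sites that lacked them. TET enzymes oxidise the methyl group, which leads to its loss, and they need 2-oxoglutarate from isocitrate dehydrogenase. At imprinted genes, where only the copy of 1 parent is active, the zinc finger proteins ZFP57 and ZFP445 bind the methylated copy and hold the corepressor TRIM28 there. DPPA3, known from mouse eggs and germ cells, shields methylation from TET3 in the zygote.

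Total counts ran from 33226463 to 40983999 per library. Chchd2 was at 17.1 ± 0.498 CPM (counts scaled to the library total, adjusted by TMM, the trimmed mean of log ratios) in KO, against 352 ± 13.7 CPM in WT (SD, n = 3 each), so all 6 labels and the targeted gene went together. The 13 ovarian, Mullerian and epithelial markers summed to 2264 to 2392 CPM in KO, against 2812 to 2960 CPM in WT libraries, and of the 11 tested 2 were higher and 5 lower. Krt7 (log2 change -1.88), Gata4 (-1.50), Msln (-1.38), Krt8 (-0.76) and Krt18 (-0.55) were lower, and Krt19 (0.44) and Muc16 (0.46) higher, Muc16 losing its call without KO replicate 3 (edgeR adjusted p = 0.0536). Wt1 was at 676 CPM in KO, against 719 CPM in WT, and was not called, whereas Pax8 had at most 2 counts in a KO and 19 in a WT library and Foxl2 at most 1 in any library. The 8 immune markers summed to 3.34 to 3.84 CPM in KO, against 5.54 to 12.4 CPM in WT libraries, with Cd3e at 0 and all 3 that could be tested lower (Cd68, Csf1r, Lyz2). The Lyz2 call was lost in 6 alternatives, with voom, with no filter and without KO replicate 1, 2 or 3 or WT replicate 1 (adjusted p of 0.0505 to 0.197). The 7 endothelial markers summed to 2.70 to 3.63 CPM in KO, against 5.71 to 6.19 CPM in WT, with Tie1 and Cldn5 at 0, Tek higher and Kdr lower. The 10 fibroblast and mesenchymal markers summed to 1187 to 1301 CPM in KO, against 1689 to 1763 CPM in WT libraries. Col3a1 (0.845) and Pdgfrb (2.14) were higher, and Thy1 (-9.40), Col1a1 (-3.70), Acta2 (-2.81) and Vim (-1.44) lower. The changes of Thy1, Col1a1, Acta2 and Pdgfrb were greater in size than that of any member. For scale, 27.8% of all tested genes were higher and 27.8% lower. The part of any such cells in the values below was not tested. In bulk RNA, fewer cells of a type and less RNA per cell cannot be told apart. The labels do not say that replicates were separate cultures, so p-values measure the spread between these libraries, which may be technical. KO replicate 2 lay nearest to WT for 7 of the 9 members with counts, Dnmt1, Dnmt3a, Tet1, Tet2, Tet3, Zfp445 and Trim28.

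In KO libraries the maintenance enzyme gene Dnmt1 was lower, both de novo enzyme genes and all 3 Tet genes were higher, and the guards split, with Zfp445 higher and Zfp57 and Trim28 slightly lower. Thus 6 of the 9 members with enough counts to test were higher and 3 lower at an adjusted p under 0.05, in edgeR's quasi-likelihood test with Benjamini-Hochberg (BH) adjustment over 16033 genes. The background is high in this comparison: 55.7% of all tested genes passed, 27.8% of all tested genes as higher and 27.8% as lower in KO. For each of the 9 members all KO values lay on one side of all WT values, as they did for 64% of all tested genes, so a call is close to the rule here. Dppa3 had 0 counts in all 6 libraries and was not tested. That allows up to 3 counts, or 0.0736 to 0.0885 CPM, in a library, by counting error only.

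**Figure D1:**
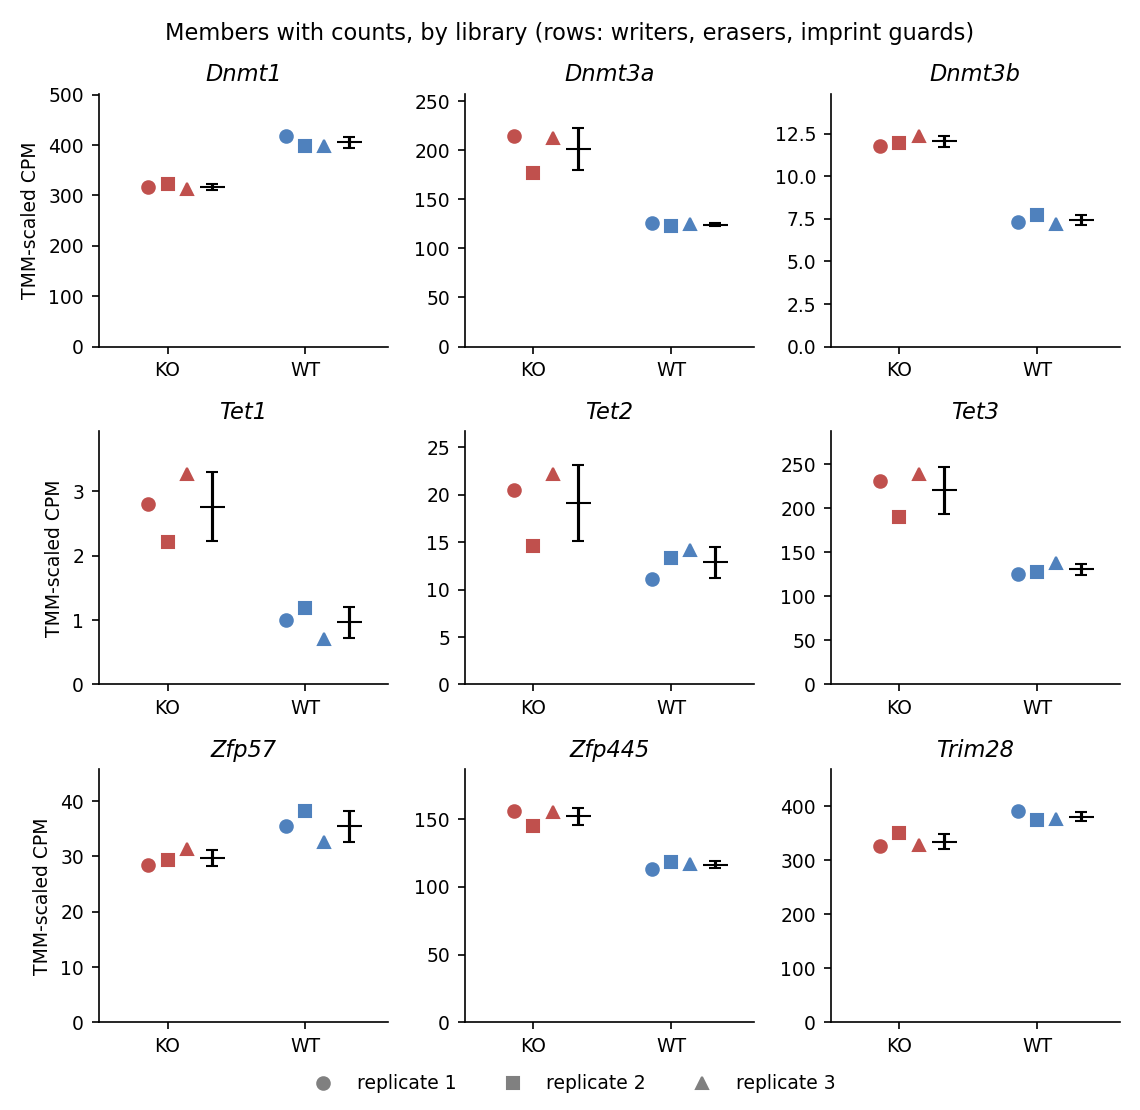
Level of the 9 members with counts in each library (y axis, TMM-scaled CPM from 0; x axis, KO and WT). Points are libraries, with a shape for each replicate number, and the bar is the mean with its SD over 3 libraries. KO and WT points do not overlap in any panel, and relative to its level the gap is narrow for Tet2 and Zfp57.

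Among the writers, Dnmt1 (ENSMUSG00000004099, chromosome 9, positions 20907209 to 20959888, minus strand of GRCm38) copies existing methylation. It was at 316, 322 and 312 CPM in KO replicates 1 to 3, against 419, 399 and 399 CPM in WT replicates 1 to 3. All KO libraries lay below all WT libraries, and the spread within each genotype was a small part of the gap. The log2 fold change of KO over WT was -0.36 (SE 0.05; 95% interval -0.46 to -0.25), with an edgeR adjusted p of 1.15e-04. The fitted Dnmt1 level in KO was 78.2% of that in WT.

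Dnmt3a (ENSMUSG00000020661, chromosome 12, positions 3806007 to 3914443, plus strand), the main de novo enzyme gene of somatic cells, was at 215, 177 and 213 CPM in KO, against 125, 122 and 124 CPM in WT replicates 1 to 3. Replicate 2 was the lowest KO library and still lay above every WT library. The log2 change was 0.70 (SE 0.07; edgeR adjusted p = 1.76e-05), a level 1.62 times that of WT. Dnmt3b (ENSMUSG00000027478, chromosome 2, positions 153649450 to 153687730, plus strand), the de novo enzyme gene most used in early embryos, was at 11.79, 11.98 and 12.39 CPM in KO, against 7.345, 7.757 and 7.199 CPM in WT replicates 1 to 3. These levels rest on 412, 488 and 481 counts in KO and 257, 263 and 286 counts in WT. The log2 change of Dnmt3b was 0.70 (SE 0.10; edgeR adjusted p = 1.17e-04). Dnmt3a and Dnmt3b, at levels far apart, thus differed from WT by nearly the same factor.

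Promoter sequences are given for the writers and for Uhrf1, because Dnmt1 and Uhrf1 act together and were both lower while Dnmt3a and Dnmt3b were both higher. They come from RefSeq on GRCm38.p6 and run 5′ to 3′ from 250 bases before to 50 after a start site; of several starts the window with most CpG is shown. In Dnmt1 (chr9:20952574-20952873, minus strand) and Uhrf1 (chr17:56304063-56304362, plus strand) capitals mark the E2F consensus in its forms TTTCCCGC, TTTCGCGC, TTTGCCGC and TTTGGCGC, searched on both strands.
Dnmt1: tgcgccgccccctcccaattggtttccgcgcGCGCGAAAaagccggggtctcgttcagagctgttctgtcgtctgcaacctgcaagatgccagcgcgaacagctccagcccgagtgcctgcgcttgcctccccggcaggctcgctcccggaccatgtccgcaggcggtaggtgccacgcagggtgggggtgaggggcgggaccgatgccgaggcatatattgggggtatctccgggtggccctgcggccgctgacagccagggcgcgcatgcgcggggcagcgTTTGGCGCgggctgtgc
Uhrf1: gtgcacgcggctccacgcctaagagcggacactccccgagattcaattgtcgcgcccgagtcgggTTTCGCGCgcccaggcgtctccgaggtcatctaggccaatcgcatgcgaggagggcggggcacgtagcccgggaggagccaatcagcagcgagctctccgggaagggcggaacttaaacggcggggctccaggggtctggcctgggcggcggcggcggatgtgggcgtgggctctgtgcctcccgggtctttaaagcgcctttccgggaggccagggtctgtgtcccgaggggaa
In Dnmt3a (chr12:3806910-3807209, plus strand) and Dnmt3b (chr2:153649199-153649498, plus strand) capitals mark the GC box GGGCGG on either strand, with some matches overlapping.
Dnmt3a: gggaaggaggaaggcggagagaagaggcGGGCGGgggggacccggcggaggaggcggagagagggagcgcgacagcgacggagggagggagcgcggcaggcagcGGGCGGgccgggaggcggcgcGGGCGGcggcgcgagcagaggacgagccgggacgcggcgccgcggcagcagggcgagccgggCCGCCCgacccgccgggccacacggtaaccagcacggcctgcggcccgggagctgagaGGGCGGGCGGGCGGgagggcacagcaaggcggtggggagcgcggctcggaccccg
Dnmt3b: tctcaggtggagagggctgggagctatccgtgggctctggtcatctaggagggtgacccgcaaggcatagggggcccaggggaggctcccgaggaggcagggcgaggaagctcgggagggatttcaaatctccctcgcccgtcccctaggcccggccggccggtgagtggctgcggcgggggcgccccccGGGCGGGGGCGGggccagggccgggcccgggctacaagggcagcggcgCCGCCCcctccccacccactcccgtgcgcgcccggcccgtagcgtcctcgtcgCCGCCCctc
The Dnmt1 window held 2 E2F matches and the Uhrf1 window 1, and none of the other 14 windows of the members held any, where 2.26% of all 32851 windows of this length did. The Dnmt3a window held 7 GC boxes and the Dnmt3b window 4, against 2 in that of Dnmt1 and 3 in that of Uhrf1, and 35.7% of all windows held at least 1. The motifs were chosen after the windows were read, and a match is only a match of letters. Both motifs hold a CpG, and the windows shown have 30 to 47 CpG sites, against a median of 7 over all windows. The shares over all windows are thus not like for like, and no contrast between the pairs was tested. Counts per gene do not show which start was used, and Dnmt1 and Dnmt3a have 3 windows each. Uhrf1 has another window (chr17:56303087-56303386), with 12 CpG sites and 0 E2F matches.

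Per kilobase of exon, Dnmt1 made up most writer RNA. It was at 43.0 ± 0.695 CPM per kb in KO and 55.0 ± 1.54 CPM per kb in WT libraries, Dnmt3a at 12.1 ± 1.29 in KO and 7.45 ± 0.0971 in WT, and Dnmt3b at 2.36 ± 0.0606 in KO and 1.46 ± 0.0567 in WT (SD, n = 3 each). The summed writers came to 57.4 ± 0.733 CPM per kb in KO and 63.88 ± 1.602 CPM per kb in WT. Dnmt1 was 74.8% ± 1.99 of that sum in KO and 86.05% ± 0.253 in WT, and Dnmt3a 21.1% ± 2.01 in KO and 11.7% ± 0.199 in WT. The shares of the 3 genes thus differed more between KO and WT than their total did.

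**Figure D2:**
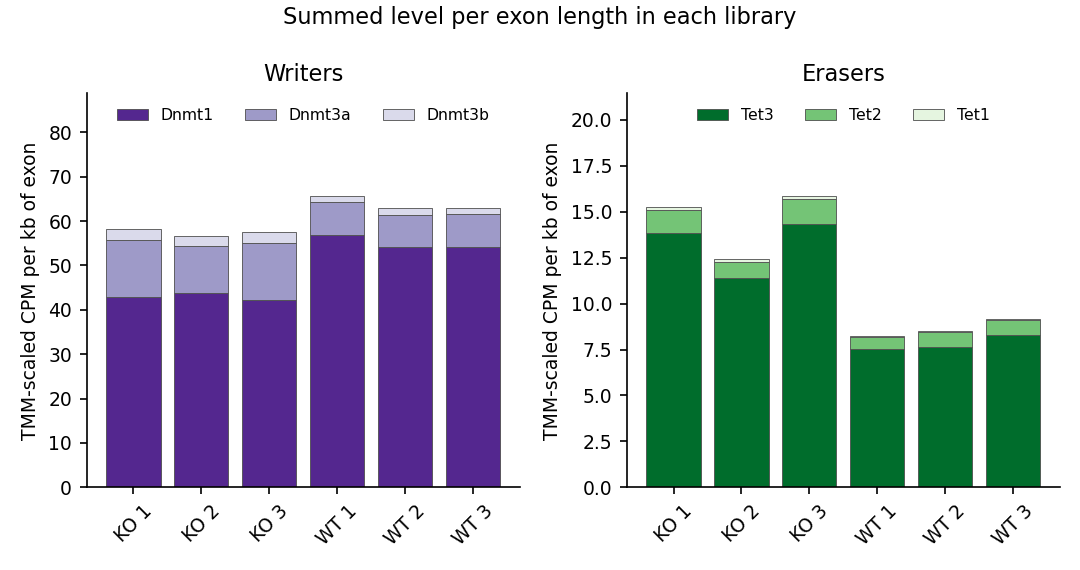
Stacked levels of the 3 writers (left) and the 3 erasers (right) in each KO and WT library (y axis, TMM-scaled CPM per kb of exon). Writer sums are 56.7 to 58.1 in KO and 63.0 to 65.7 in WT; eraser sums are 12.4 to 15.9 in KO and 8.26 to 9.17 in WT, nearly all of it Tet3.

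Ratios taken within a library do not depend on how libraries are scaled. The counts of Dnmt3a over those of Dnmt1 were 0.679, 0.548 and 0.682 in KO replicates 1 to 3, against 0.2996, 0.3064 and 0.3116 in WT replicates 1 to 3. The log2 ratio differed by 1.05 between KO and WT, and every KO library was above every WT library. By an exact permutation test, two-sided, p was 0.1, which no 3 against 3 comparison can go below, and 0.129 after BH adjustment over 9 ratios. Dnmt3b over Dnmt1 behaved alike, with a difference of 1.05 on the log2 scale and the same exact p of 0.1. Dnmt3b over Dnmt3a was 0.0603 ± 0.00671 in KO and 0.0600 ± 0.00303 in WT (SD, n = 3 each; exact permutation p = 0.9), a log2 difference of 0.004 that changed sign when single libraries were left out.

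All 3 erasers were higher in KO. Tet3 (ENSMUSG00000034832, chromosome 6, positions 83362373 to 83459084, minus strand), the TET gene of the zygote and of many differentiated tissues, was at 231 (replicate 1), 190.4 (replicate 2) and 240 (replicate 3) CPM in KO, against 126, 128 and 138 CPM in WT. Its lowest KO library was again replicate 2, well above the highest WT library. The log2 change was 0.75 (SE 0.08; edgeR adjusted p = 3.17e-05). Tet2 (ENSMUSG00000040943, chromosome 3, positions 133463679 to 133545139, minus strand), a tumour suppressor gene of blood cells, was at 20.5, 14.6 and 22.2 CPM in KO, against 11.1, 13.4 and 14.2 CPM in WT replicates 1 to 3. KO replicate 2 lay just above WT replicate 3, so the separation was narrow. The log2 change of Tet2 was 0.57 (SE 0.15; edgeR adjusted p = 0.0101), and 0.73 without KO replicate 2.

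Tet1 (ENSMUSG00000047146, chromosome 10, positions 62804570 to 62908996, minus strand), the TET gene of pluripotent and germ cells, had the greatest relative difference of the members and the lowest level of those tested. Its counts were 98, 90 and 127 in KO and 35, 40 and 28 in WT replicates 1 to 3, or 2.80, 2.21 and 3.27 CPM against 1.00, 1.18 and 0.705 CPM. The KO libraries were all above the WT libraries, and the log2 change was 1.53 (SE 0.24; 95% interval 0.99 to 2.06; edgeR adjusted p = 3.18e-04). At 0.179 ± 0.0345 CPM per kb in KO and 0.0622 ± 0.0155 CPM per kb in WT, Tet1 was 1.22% of the eraser sum in KO and 0.726% in WT. Its promoter window (chr10:62887275-62887574, minus strand) is shown because this low transcript changed most, with each of its 17 CpG sites in capitals.
Tet1: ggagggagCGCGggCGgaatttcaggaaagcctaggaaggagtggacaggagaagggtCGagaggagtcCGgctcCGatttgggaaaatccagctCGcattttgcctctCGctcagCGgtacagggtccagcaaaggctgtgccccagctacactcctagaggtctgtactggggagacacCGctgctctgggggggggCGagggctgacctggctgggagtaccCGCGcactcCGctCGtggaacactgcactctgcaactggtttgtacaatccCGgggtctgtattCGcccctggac
The median window of all genes has 7 CpG sites, those of Tet3 and Tet2 have 22 and 57, and their methylation is not known from these data. The Tet1 window lies inside the annotated gene, which begins at position 62908996 on the minus strand. Whether this start gave the Tet1 reads is not shown by counts per gene.

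**Figure D3:**
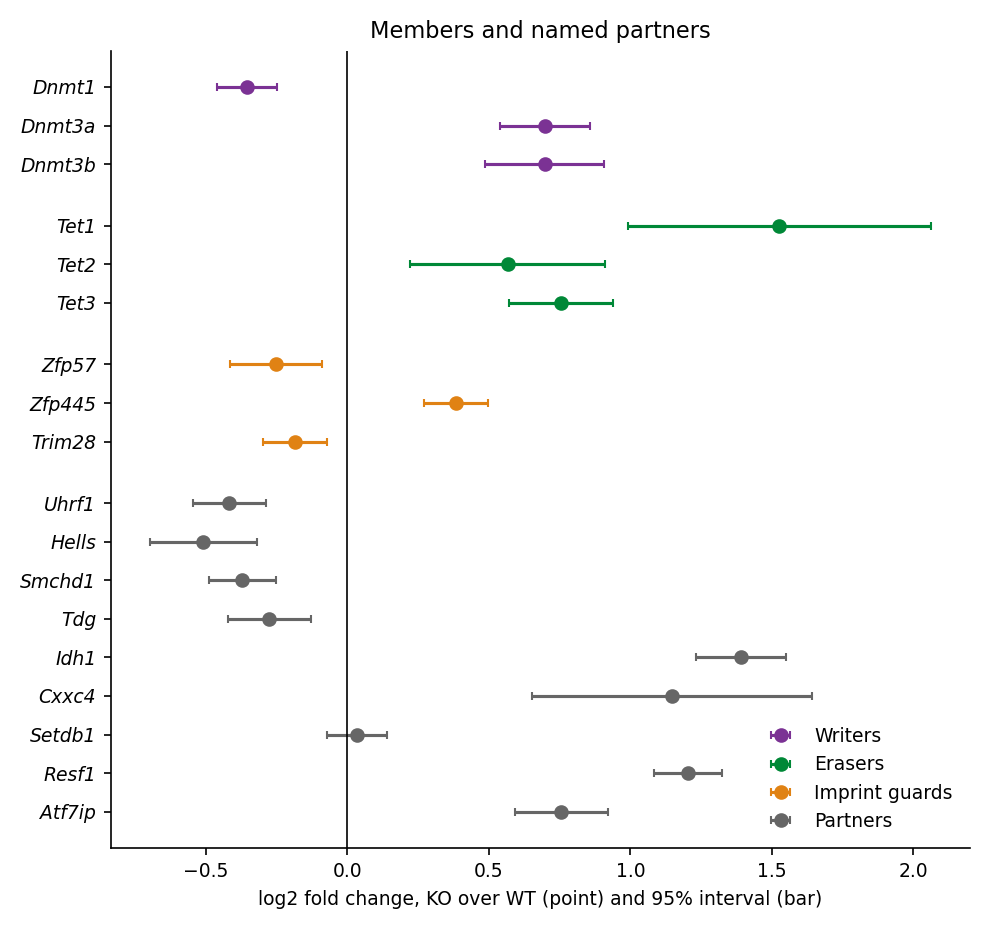
Fitted log2 fold change of KO over WT (x axis) for the 9 tested members and 9 named partners (y axis); points are estimates from all 6 libraries and bars 95% intervals. De novo writers and erasers lie right of 0, Dnmt1 with Uhrf1, Hells and Smchd1 left of it, and Setdb1 spans it.

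Summed per kilobase, the erasers were at 14.5 ± 1.85 CPM per kb in KO and 8.65 ± 0.472 CPM per kb in WT (SD, n = 3 each). Tet3 was 91.0% ± 0.782 of that sum in KO and 90.5% ± 0.729 in WT. The summed writers over the summed erasers gave 3.81, 4.57 and 3.62 in KO replicates 1 to 3, against 7.96, 7.39 and 6.86 in WT replicates 1 to 3. All KO ratios were below all WT ratios, with a log2 difference of -0.89 (exact two-sided permutation p = 0.1, the smallest possible). Within the family, counts of Tet1 over Tet3 were 0.0125 ± 0.00107 in KO and 0.00743 ± 0.00212 in WT, a log2 difference of 0.79 (exact permutation p = 0.1). Tet2 over Tet3 was 0.0860 ± 0.00849 in KO and 0.0984 ± 0.00891 in WT, and those values overlapped (exact permutation p = 0.3).

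**Figure D4:**
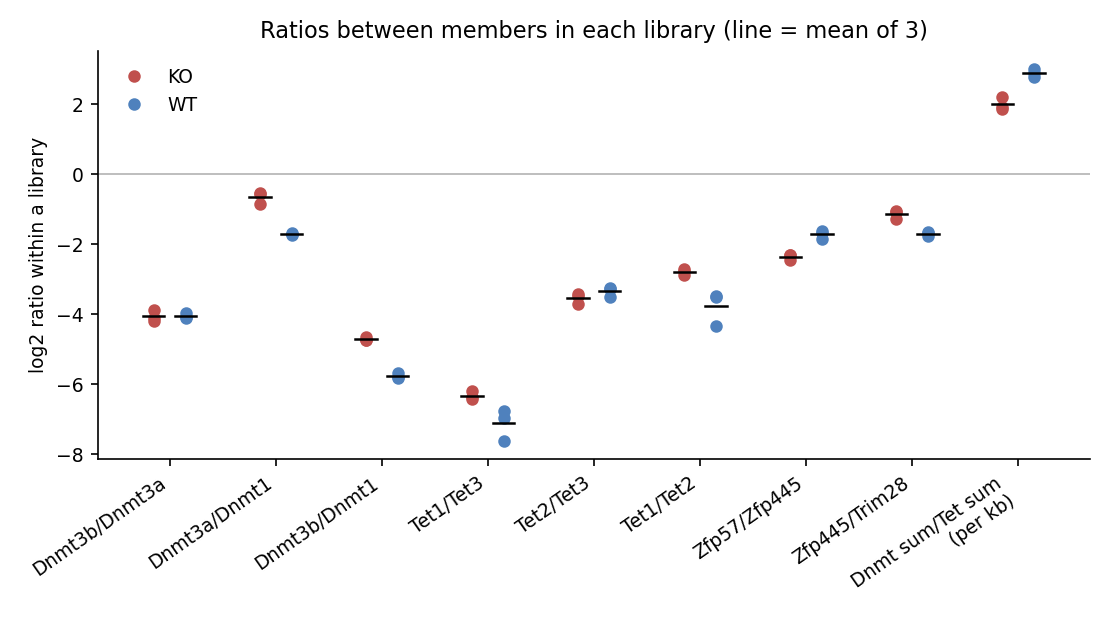
Log2 ratio of the counts of paired members in each library (y axis), with KO left of WT for each pair and a line at the mean of 3; the last pair uses sums per kb of exon. KO and WT libraries are apart in 7 of the 9 ratios and overlap for Dnmt3b/Dnmt3a and Tet2/Tet3.

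Among the guards, Zfp57 and Trim28 differed least of the tested members. Zfp445 differed about as much as Dnmt1 (log2 change -0.36), in the other direction. Zfp445 (ENSMUSG00000047036, chromosome 9, positions 122844529 to 122866006, minus strand) was at 156, 145 and 155 CPM in KO, against 114, 118 and 117 CPM in WT replicates 1 to 3. The genotypes were well apart, and the log2 change was 0.38 (SE 0.05; edgeR adjusted p = 1.02e-04). Zfp57 (ENSMUSG00000036036, chromosome 17, positions 37001163 to 37010635, plus strand) was at 28.5, 29.3 and 31.3 CPM in KO, against 35.5, 38.1 and 32.6 CPM in WT replicates 1 to 3. The highest KO and the lowest WT library nearly met, and the log2 change was -0.25 (SE 0.07; edgeR adjusted p = 0.0134). Trim28 (ENSMUSG00000005566, chromosome 7, positions 12999114 to 13031035, plus strand) was the most abundant member per exon length, at 80.5 ± 3.16 CPM per kb in KO and 91.5 ± 2.06 CPM per kb in WT. In CPM it was at 326, 350 (replicate 2, from 14247 counts) and 328 in KO, against 390.3, 375 and 376 in WT replicates 1 to 3. Its log2 change was -0.19 (SE 0.05; edgeR adjusted p = 0.00934).

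The calls of both small falls depended on which scaling was used. They held with upper quartiles (edgeR adjusted p = 0.0344 for Zfp57 and 0.0370 for Trim28) and not with library totals. With library totals in place of TMM, under which the median of all genes was 0.13 rather than 0.01 on the log2 scale, Zfp57 was at -0.13 (edgeR adjusted p = 0.161) and Trim28 at -0.06 (edgeR adjusted p = 0.201). Neither call held without KO replicate 1, Zfp57 also missed it without WT replicate 2 and Trim28 without WT replicate 1, with adjusted p of 0.0511 to 0.0758. The ratio of the counts of the 2 zinc finger genes needs no scaling: Zfp57 over Zfp445 was 0.183, 0.202 and 0.202 in KO and 0.313, 0.322 and 0.279 in WT replicates 1 to 3. That is a log2 difference of -0.64, with no overlap (exact permutation p = 0.1). Zfp445 over Trim28 differed by 0.57 in the other direction (exact permutation p = 0.1).

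The Zfp57 promoter is shown as a contrast to Tet1, again with CpG in capitals; it is the richest of 3 Zfp57 windows (chr17:37002275-37002574, plus strand) and holds 9 CpG sites, whereas the Trim28 window holds 23 and the Zfp445 window 10.
Zfp57: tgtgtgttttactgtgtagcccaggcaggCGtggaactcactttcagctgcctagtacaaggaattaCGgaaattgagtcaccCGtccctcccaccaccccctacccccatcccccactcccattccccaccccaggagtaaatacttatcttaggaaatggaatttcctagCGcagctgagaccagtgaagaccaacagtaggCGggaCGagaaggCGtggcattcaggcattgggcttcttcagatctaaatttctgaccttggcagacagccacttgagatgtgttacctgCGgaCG
The hexamer TGCCGC, which ZFP57 binds when methylated, was absent from the 3 Zfp57 windows and present in those of Trim28 and Tet3. For Dnmt3a, the window shown and another overlapping it held the hexamer, and the one at chr12:3891494-3891793 did not. Of all windows, 11.6% hold it on either strand. That share was not matched for CpG content either.

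By level per exon length the order was Trim28, Dnmt1, Zfp445, Tet3, Dnmt3a, Zfp57, Dnmt3b, Tet2 and Tet1 in KO, with Dppa3 at 0. In KO, Tet3 was at 13.2 ± 1.58 and Dnmt3a at 12.1 ± 1.29 CPM per kb. Their exon lengths are nearly equal (16.695 and 16.642 kb), and Tet3 was above Dnmt3a in each KO library. In WT, Zfp57 came after Zfp445, at 9.35 ± 0.728, ahead of Tet3 at 7.82 ± 0.405 and Dnmt3a at 7.45 ± 0.0971 CPM per kb. Tet3 and Dnmt3a were close in WT replicate 1, at 126 and 125 CPM. With the length of the longest coding transcript in place of all exons, a choice made after the data were seen, Dnmt3a and Tet3 changed places in both genotypes and no other member moved.

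Genes that share exon bases with a member had few counts. Dnmt3aos, antisense to Dnmt3a and sharing 133 bases of its exons, had 19 counts in KO and 2 in WT, beside 22961 counts of Dnmt3a in KO and 13473 in WT. Gm42567, which shares 43 bases with Tet2, had 0 counts, as did the processed pseudogenes Dnmt3a-ps1 and Dppa3-ps. The strand setting is not given here, so reads from either strand of these shared bases cannot be told apart.

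The genes most like the writers over the 6 libraries, by Pearson's r of log2 CPM, were Gm27194, Hsp90b1 and Slain1 for Dnmt1 (r of 0.9998, 0.9993 and 0.9987), March6, Pfn2 and Lrp6 for Dnmt3a (0.9996, 0.9996 and 0.9993) and Eda, Stard5 and Prickle2 for Dnmt3b (0.9997, 0.9989 and 0.9986). The 6 points form 2 genotype groups, so r mostly follows the difference between them and is a description only. Gm27194 was at 0.0871 CPM in KO, against 0.3601 CPM in WT.

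Uhrf1 and several other cofactors of the writers were lower in KO, as Dnmt1 was. Uhrf1, which reads half-methylated CpG after replication, was at 173 ± 9.85 CPM in KO, against 231 ± 10.9 CPM in WT (SD, n = 3 each), a log2 change of -0.42 (edgeR adjusted p = 1.40e-04). Hells, a chromatin remodeller needed for methylation of silent DNA, was at -0.51, and Smchd1, a repressor of imprinted and X-linked genes, at -0.37. Of the 19 genes on the list of writer cofactors, 18 were tested, of which 4 were higher and 9 lower with a median log2 change of -0.11; for all tested genes those shares are 27.8% each and the median is 0.01. Kdm1b, a histone demethylase used in the egg to set up imprints, was at -0.61, and the histone methyltransferase gene Nsd2 at -0.51. Zbtb24, a zinc finger gene mutated in a human disorder of lost methylation, rose by 0.51, and Dmap1, which encodes a binding partner of DNMT1, by 0.49. The other two higher ones, named after their values were seen, were the histone methyltransferase genes Ehmt1 (0.17) and Ehmt2 (0.45). The Ehmt1 call was lost without WT replicate 1 or WT replicate 3 (edgeR adjusted p of 0.0589 and 0.0753). Dnmt3l, the partner of DNMT3A in germ cells, had 1, 3 and 2 counts in KO and 5, 3 and 0 in WT libraries and was not tested. With library totals the list had 7 higher (38.9%) and 8 lower (44.4%) genes, and its median was 0.01. All tested genes were then 36% higher and 20.5% lower, with a median of 0.13.

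Of 26 S-phase genes, 1 was higher (3.85%), 16 were lower (61.5%) and 9 were not called, with a median log2 change of -0.21. Of all tested genes 27.8% were called in each direction. With library totals 2 were higher (7.69%) and 9 lower (34.6%), against 36% and 20.5% of all tested genes. With TMM the higher one was Lig1, which joins replicated DNA pieces (0.23, named after its value was seen). The nucleotide synthesis genes Rrm1 and Tyms were at -0.57 and -0.56, the S-phase regulators E2f1 and Ccne2 at -0.57 and -0.56, and Cdc6, which licenses origins, at -0.56. The summed level of the 26 genes was 3949 to 4372 CPM in KO, against 4766 to 4966 CPM in WT libraries. Pcna, which is on both lists and was named after its value was seen, was at 362 ± 16.7 CPM in KO, against 371 ± 25.8 CPM in WT (edgeR adjusted p = 0.639; 95% interval of the log2 change -0.17 to 0.10). The part of the S-phase share of cells in the Dnmt1 difference was not tested.

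Around the TET enzymes, 13 of 21 tested genes were higher (61.9%) and 6 lower (28.6%), with a median log2 change of 0.26. Of all tested genes 27.8% were higher and 27.8% lower, so the share of lower genes was near that of all genes. Under library totals 13 were higher (61.9%) and 4 lower (19%), with a median of 0.38. All tested genes were then 36% higher and 20.5% lower, with a median of 0.13. Idh1, the cytosolic enzyme gene that supplies 2-oxoglutarate, was at 87.9 ± 6.81 CPM in KO, against 33.5 ± 1.79 CPM in WT, a log2 change of 1.39 (edgeR adjusted p = 1.63e-07). Cxxc4 and Cxxc5, relatives of the CpG-binding domain of Tet genes that bind TET2, rose by 1.15 and 0.51, Cxxc4 being low in both, at 2.06 CPM in KO, against 0.924 CPM in WT. The glycosylase genes Neil2 and Neil1 rose by 0.90 and 0.87, and the call of Neil2 was lost without KO replicate 3 or WT replicate 1 (edgeR adjusted p of 0.0647 and 0.0668). Tdg, the glycosylase that removes oxidised methylcytosine, went the other way, at 162 ± 15.5 CPM in KO, against 196 ± 5.13 CPM in WT (log2 change -0.28; edgeR adjusted p = 0.00474). Gadd45b, a stress gene reported to promote demethylation, was at -1.01, and its relatives, named after their values were seen, were at 0.83 (Gadd45a) and -0.73 (Gadd45g).

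Of 23 tested genes on the list of TRIM28 partners, 3 were higher (13%), 8 lower (34.8%) and 12 not called, with a median log2 change of -0.07. Of all tested genes 27.8% were called in each direction. Library totals gave 7 higher and 7 lower (30.4% each) and a median of 0.05. With that scaling 36% of all tested genes were higher and 20.5% lower, with a median of 0.13. Not every gene on the list is known to bind TRIM28. Setdb1, the histone methyltransferase that TRIM28 recruits, was at 128 ± 0.645 CPM in KO, against 125 ± 3.41 CPM in WT (log2 change 0.03; 95% interval -0.07 to 0.14; edgeR adjusted p = 0.578), and passed with library totals at 0.15. Resf1, which supports SETDB1 in silencing retroviral elements, was at 304 ± 12.5 CPM in KO, against 132 ± 4.92 CPM in WT, a log2 change of 1.204 (edgeR adjusted p = 6.03e-08). The chromatin remodeller gene Chd3, a partner that binds TRIM28, rose by 1.15, and Atf7ip, the cofactor that stabilises SETDB1, rose by 0.76. Zfp809, which leads TRIM28 to retroviral DNA in mouse, fell by 0.81 and the histone methyltransferase gene Suv39h2 fell by 0.55.

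Against 27.8% of all tested genes each way, 10 of 13 tested genes on the list of CpG readers were higher (76.9%) and 2 lower (15.4%). The median log2 change of the 13 was 0.34. Not all of them read methylation: Cxxc1 (0.34), Kdm2a (0.25) and Kdm2b (-0.13, not called) bind CpG without a methyl group, and Mbd3, Mbd5 and Mbd6 (0.36) have the reader domain but are not known to read methylated CpG. Mbd1 rose by 0.64, Mbd5 by 0.57 and Zbtb33, which encodes the reader Kaiso, by 0.54, whereas Bend3, a repressor at CpG-rich DNA, was at -0.74. The other lower gene, named after its value was seen, was Mbd3, a subunit of a deacetylase complex (-0.54). The counts of 10 and 2 were the same with library totals and with upper quartiles. Those scalings called 36% and 31.1% of all tested genes higher, and 20.5% and 24.5% lower. Genes on the list for supply of the methyl donor S-adenosylmethionine were mostly lower, 9 of 13 (69.2%) against 2 higher (15.4%), with a median of -0.39. Not all of them make or use the donor itself. Library totals gave 7 lower (53.8%) and 3 higher (23.1%), where 20.5% of all tested genes were lower and 36% higher. Mat1a, the donor synthase of liver, was at -1.08, Mtrr, which reactivates methionine synthase, at -0.87, Bhmt, which remakes methionine from homocysteine, at -0.74 and Mtap, which salvages methionine, at -0.62. Mat2a, the donor synthase of most other cells and named after its value was seen, was at 387 ± 42.5 CPM in KO, against 594 ± 15.1 CPM in WT, a log2 change of -0.62. The call of Mat1a was lost without KO replicate 2 (edgeR adjusted p = 0.0505), and that of Bhmt without KO replicate 2 or 3 or WT replicate 2 or 3 (0.0573 to 0.0697). Nnmt, which consumes the donor, rose by 1.22, and Ahcy, which clears its product and was named after its value was seen, by 0.27.

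**Figure D5:**
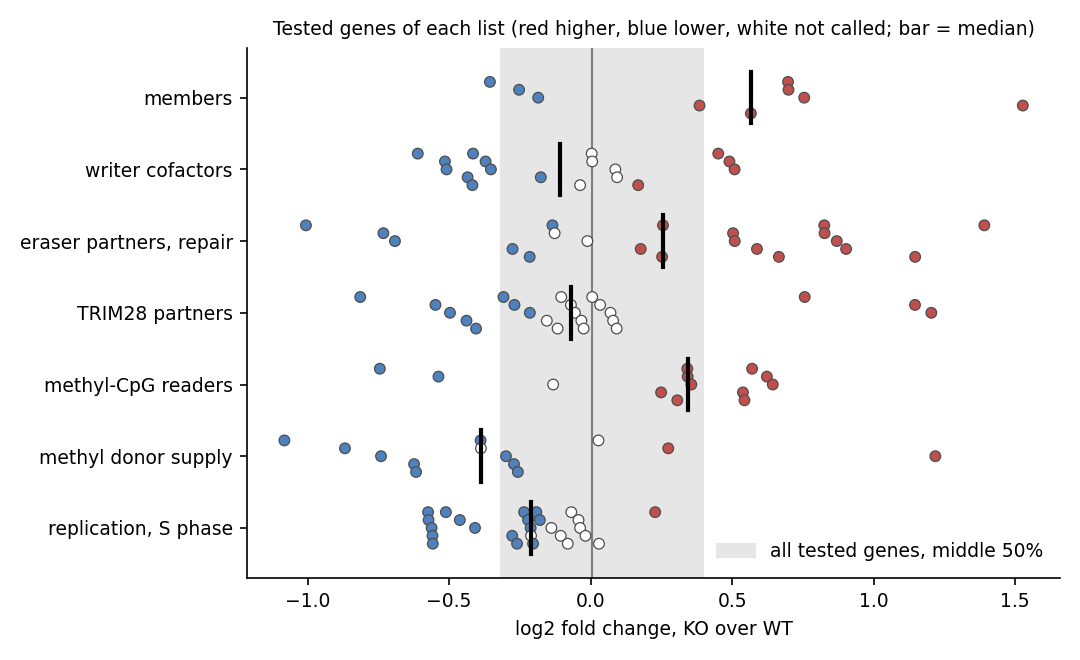
Log2 fold change of KO over WT (x axis) of each tested gene, by list (y axis); red genes were called higher, blue lower, white not called, and the black bar is the list's median. The shaded band holds the middle 50% of all tested genes; medians run from -0.39 (methyl donor supply) to 0.34 (readers) among the related lists.

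Germline genes that DNA methylation keeps silent in mouse somatic cells mostly had few or no counts in both genotypes. Of 30 such genes, 21 had at most 10 counts in every library and 8, Dazl among them, had 0 in all. The tests covered 7, of which 2 were higher (28.6%) and 1 lower (14.3%), against 27.8% of all tested genes each way. Asz1, a germ granule gene, was at 2.27 ± 0.393 CPM in KO, against 0.561 ± 0.0179 CPM in WT, from 88, 74 and 96 counts in KO and 19, 19 and 23 in WT replicates 1 to 3 (log2 change 2.01; edgeR adjusted p = 4.18e-05). Tex19.1, a germ cell and placental gene, was at 51.7 ± 2.79 CPM in KO, against 31.0 ± 0.887 CPM in WT (log2 change 0.74). Trim71, an RNA-binding repressor of early development, was at -0.40, a call lost with library totals (edgeR adjusted p = 0.149), with upper quartiles (0.0670) and without KO replicate 1 or 2 or WT replicate 1 or 2 (0.0816 to 0.135).

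Of 16 pluripotency and germ cell markers, 11 had too few counts to test. Pou5f1 had 1 count in all 6 libraries together, in WT replicate 3, and Nanog was at 2.03 ± 0.416 CPM in KO, against 2.24 ± 0.305 CPM in WT (edgeR adjusted p = 0.577). Tfcp2l1, a transcription factor of naive mouse stem cells, rose by 0.73. Of the 5 markers tested, 1 was called higher and 1 lower (20% each, against 27.8% each for all tested genes). Without KO replicate 1 or without KO replicate 3, 3 in all were called. Dppa2, a DNA-binding protein gene of pluripotent cells, unrelated to Dppa3 despite the name, was at 0.318 ± 0.112 CPM in KO, against 3.74 ± 0.422 CPM in WT, a log2 change of -3.56 (edgeR adjusted p = 1.66e-06), from 15, 13 and 8 counts in KO and 122, 119 and 168 in WT replicates 1 to 3.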

How the data were processed

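The authors deposited raw counts of reads per Ensembl gene for 3 KO and 3 WT libraries, made from 1.3 ug of total RNA each. GRCm38 was the build, per the submitters' processing notes, which list STAR 2.5.2b, Subread 1.5.2, Trimmomatic 0.36, bcl2fastq 2.17 and DESeq2. The annotation release, strand setting and treatment of reads with several matches are not given here. Symbols, positions and exon lengths came from GENCODE M21, which matched 49056 of 49315 IDs.

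Genes were filtered at a minimum count of 10 (filterByExpr, 16033 kept), scaled by TMM and tested for genotype with edgeR 4.0.16 (R 4.3.3, robust quasi-likelihood, BH adjustment, threshold 0.05). Alternatives used limma 3.58.1 (voom), DESeq2 1.42.0, other scalings and filters, a replicate block and omission of each library. On simulated counts the edgeR test recovered 10%, 62%, 66% and 88% of genes changed 1.2, 1.5, 2 and 4-fold, and 5.83% of its calls were false; 50 genes were changed at each size, far fewer than differ in the data. Members and lists were chosen with earlier results of these data known. Named genes were all members, 12 fixed partners (Uhrf1, Dnmt3l, Tdg, Setdb1, Hells, Smchd1, Resf1, Cxxc4, Cxxc5, Pou5f1, Nanog, Dazl), Chchd2 and up to 5 called genes per list with the greatest change and at least 1 CPM in the higher genotype. One gene that this rule names among the readers is not reported here. Outside the rule, marker genes were named to describe the line, and Pcna, Ehmt1, Ehmt2, Lig1, Gadd45a, Gadd45g, Mbd3, Mbd6, Cxxc1, Kdm2a, Kdm2b, Mat2a and Ahcy after their values were seen. Same-numbered KO and WT libraries did not deviate together (r of -0.059, 0.051 and 0.028), so numbers were not taken as pairs. Intervals and floors cover counting error or library spread only.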

Additional observations from a re-analysis of the deposited data

How the results depend on the processing

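Over the 15 alternatives run, Dnmt1, Dnmt3a, Dnmt3b, Tet1, Tet2, Tet3 and Zfp445 kept their direction and their call, with log2 changes of -0.37 to -0.24, 0.65 to 0.82, 0.67 to 0.82, 1.33 to 1.69, 0.44 to 0.73, 0.69 to 0.88 and 0.36 to 0.51. Tet2 came closest to the threshold, at an edgeR adjusted p of 0.0450 without WT replicate 1. With library totals Zfp57 was at -0.13 (edgeR adjusted p = 0.161) and Trim28 at -0.0649 (0.201), because that scaling shifts all genes. Leaving out single libraries gave -0.31 to -0.20 for Zfp57 and -0.22 to -0.17 for Trim28, and each lost its call in 2 of the 6 cases; the cause was not tested. The adjusted p over all alternatives ran from 0.00458 to 0.161 for Zfp57 and from 1.44e-04 to 0.201 for Trim28. The log2 difference in Dnmt3b over Dnmt3a ran from -0.0838 to 0.0688 without single libraries: it was -0.0838 without KO replicate 2, -0.0130 without WT replicate 1 and -0.0210 without WT replicate 3. The other 8 ratios kept their sign. With the replicate number as a block, the member values were -0.36, 0.69, 0.70, 1.52, 0.56, 0.75, -0.25, 0.38 and -0.19 in the order Dnmt1, Dnmt3a, Dnmt3b, Tet1, Tet2, Tet3, Zfp57, Zfp445 and Trim28, and no member's call changed; 8877 genes were called against 8926 without it. Among the other genes named, the block ended only the call of Trim71 (edgeR adjusted p = 0.0587). Library totals gave 63.7% of calls as higher in KO, against 50% with TMM. Without single libraries 7585 to 10002 genes were called, the most without KO replicate 2. Of 106 called genes on the related and marker lists, 84 kept their call in all alternatives. Dppa3 and other genes near 0 are limited by depth.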
